A study of Mus musculus with 4 samples.

Results

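The BMP, TGF-beta and activin pathway was described across 39 genes chosen from a list of ligands, latency and processing proteins, receptors, antagonists, SMAD proteins and Id targets. Every probe set whose single gene symbol in the platform annotation was 1 of these genes was taken, which gave 86 of the 45037 probe sets that were not controls, and all 39 genes, of 18193 named on the array, had at least 1. The genes were measured in dorsal skin at postnatal day 16 in 2 groups of mice. Bitransgenic mice, with 2 animals, overexpressed deltaNp63alpha, the p63 isoform without the amino-terminal transactivation domain and with the alpha tail. Wild type mice, also with 2 animals, carried no stated transgene. Each animal gave 1 single-colour Affymetrix Mouse 430 2.0 array (n = 2 in each group for all values below), so few arrays set how precise any value can be. The labels used here give neither the promoter that drives the transgene nor an inducing treatment, litter or sex.

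Ligands of this family bind pairs of type I and type II receptor kinases, which phosphorylate receptor SMAD proteins. BMP receptors act mainly through SMAD1 and SMAD5, and TGF-beta and activin receptors through SMAD2 and SMAD3. SMAD4 joins the activated SMADs in the nucleus, SMAD6 and SMAD7 inhibit the pathway, and the Id genes are direct targets of BMP signalling. In skin, BMP4 is made by the hair follicle's dermal papilla and precortex and promotes differentiation of the shaft, while noggin and TGF-beta2 are known for follicle formation and TGF-beta family ligands for the end of hair growth.

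The values are probe set signals in linear units of array intensity. Before testing, signals were transformed as log2(signal + 16), and probe sets were kept when the mean over the 4 arrays reached the 40th percentile of all probe sets, a signal of about 57.0. Differences are bitransgenic minus wild type on that scale, each with its standard error (SE), and adjusted p values come from limma over all 27022 kept probe sets with a threshold of 0.05. Of the 86 probe sets, 74 were kept and 12 were not, and the genes with a kept probe set numbered 38. Only Nog, which codes for the BMP antagonist noggin, had none. The median signal of an array lay between 97.9 and 113.1. Over kept probe sets the correlation was 0.949 between the bitransgenic arrays and 0.918 between the wild type arrays, and 0.869 to 0.920 across genotypes. Of 4 Trp63 probe sets, 2 rose, by 4.85 ± 0.61 and 4.53 ± 0.57, and the other 2 had differences of -0.037 and -0.33. The skin keratins Krt5 and Krt14 were bright on all arrays, with Krt14 at 25491 and 36168 in bitransgenic and 22719 and 29412 in wild type skin. The Y-linked gene Eif2s3y was high in bitransgenic replicate 2 and wild type replicate 1, and Xist in the other 2 arrays, so each genotype held 1 array of each kind.

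In bitransgenic skin Bmp4 and Bambi fell, and no pathway probe set rose past the threshold. They were 2 of 74 probe sets tested, where 0.555% of all tested probe sets were called lower and 0.207% higher. At an unadjusted p under 0.05, 15 pathway probe sets were lower and 2 higher, against 7.01% and 5.19% of all tested. Differences of 2-fold or more were seen in 12 lower and 1 higher of the 86 probe sets, against 5.95% lower and 4.41% higher over the whole array. The bitransgenic arrays both lay below the wild type arrays for 33 of the 86 probe sets (38.4%) and both above for 9 (10.5%), where the shares over the whole array were 19.3% and 20.6%. The median difference was -0.25 over the 86 probe sets and 0.016 over all probe sets. Probe sets of 1 gene share their target, so the 86 are not independent of each other.

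**Figure D1:**
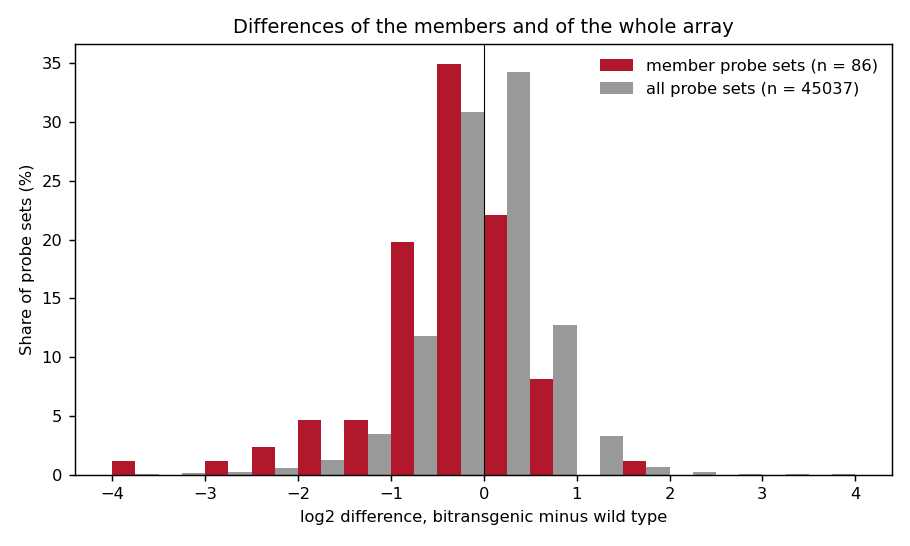
Share of probe sets (%) in bins of the log2 difference, bitransgenic minus wild type, for the 86 pathway probe sets (red) and all 45037 probe sets that were not controls (grey). The 111 probe sets of the array with a difference beyond 4 in either direction are not drawn, and the pathway's median of -0.25 lies below the array's of 0.016.

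Bambi codes for a transmembrane pseudoreceptor that lacks the kinase domain and dampens signals of the family. Its signal was 190.0 and 333.0 in bitransgenic skin, against 2200.0 and 5715.5 in wild type skin. Both bitransgenic arrays were far below both wild type arrays, which themselves differed by more than the bitransgenic arrays did. The difference was -3.73 ± 0.51, or 13.3-fold lower (adjusted p = 0.0406). Bmp4 had signals of 158.7 and 278.3 in bitransgenic skin, against 1684.3 and 1261.8 in wild type skin. The groups did not overlap, and Bmp4 was 6.50-fold lower (-2.70 ± 0.37, adjusted p = 0.0414).

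Both calls rested on the choice of fit. With no filter on dim probe sets the adjusted p was 0.0692 for Bambi and 0.0683 for Bmp4, without an intensity trend in the variance it was 0.0776 and 0.0763, and without bitransgenic replicate 1 that of Bmp4 was 0.0754 (-2.32).

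Marker signals of several cell types were lower in the same arrays. Summed signals of basal and suprabasal keratinocyte, endothelial and sebaceous markers overlapped between genotypes. Those of melanocyte markers overlapped too, at 2191 and 2409 in bitransgenic and 2290 and 16538 in wild type skin. Over the whole array 48.6% of probe sets had a lower mean in bitransgenic skin. Of all probe sets tested with limma, 0.555% were called lower, and 7.01% were lower at an unadjusted p under 0.05. The 9 measured of 10 hair shaft keratins all had lower means in bitransgenic skin, and 5 of them fell past the threshold. Their summed signal was 1135 and 4516 in bitransgenic skin, against 62749 and 106823 in wild type skin. All 8 hair matrix markers had lower means, 0 past limma's adjusted threshold and 7 at an unadjusted p under 0.05, with sums of 3927 and 5890 in bitransgenic and 8134 and 21560 in wild type skin. Of 10 dermal papilla markers, 8 had lower means, and 2, Sox18 and Spon1, had higher means. The kept ones numbered 6, of which 0 passed the adjusted threshold and 2 the unadjusted. Their sums over all 10 were 2297 and 2272 in bitransgenic and 4697 and 4335 in wild type skin. Prdm1 alone was the largest part of each sum, at 921.9 and 696.0 in bitransgenic and 2366.3 and 2652.8 in wild type skin. Corin stood out in wild type replicate 1 only, at 873.1, against 225.1 in wild type replicate 2. All 8 skeletal muscle markers had lower means as well, 1 past the adjusted threshold, with sums of 18362 and 23102 in bitransgenic and 191462 and 81861 in wild type skin. No marker of these lists was at a signal of 0. In bulk skin, fewer cells of a type and less RNA per cell cannot be told apart, and the part of the hair-forming cells in the falls of Bmp4 and Bambi was not tested.

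Promoter windows are given for 6 genes chosen after their values were seen. Bmp4 and Gdf10 fell, Tgfb2, Smad6 and Id3 were lower in both bitransgenic arrays, and Id2 was not. Each window holds the 250 bases before the annotated start and 10 from it on, from RefSeq on build GRCm38.p6, in the direction of the gene. Capitals mark matches on either strand to 3 letter strings known as SMAD-binding: GTCTAGAC, CAGAC and GGCGCC. The windows lie at chr14:46390660-46390919 (minus strand) for Bmp4, chr14:33923337-33923596 (plus) for Gdf10, chr1:186705980-186706239 (minus) for Tgfb2, chr9:64022050-64022309 (minus) for Smad6, chr4:136143572-136143831 (plus) for Id3 and chr12:25096083-25096342 (minus) for Id2.
Bmp4: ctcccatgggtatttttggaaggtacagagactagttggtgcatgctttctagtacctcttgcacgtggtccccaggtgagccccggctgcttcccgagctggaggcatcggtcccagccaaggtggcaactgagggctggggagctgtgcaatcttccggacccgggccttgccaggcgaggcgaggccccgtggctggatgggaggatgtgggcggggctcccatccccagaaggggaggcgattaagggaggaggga
Gdf10: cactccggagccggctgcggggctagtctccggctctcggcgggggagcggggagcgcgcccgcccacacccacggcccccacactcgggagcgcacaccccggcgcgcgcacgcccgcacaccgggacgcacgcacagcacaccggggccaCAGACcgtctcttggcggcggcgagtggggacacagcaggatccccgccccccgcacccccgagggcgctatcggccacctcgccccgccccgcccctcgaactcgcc
Tgfb2: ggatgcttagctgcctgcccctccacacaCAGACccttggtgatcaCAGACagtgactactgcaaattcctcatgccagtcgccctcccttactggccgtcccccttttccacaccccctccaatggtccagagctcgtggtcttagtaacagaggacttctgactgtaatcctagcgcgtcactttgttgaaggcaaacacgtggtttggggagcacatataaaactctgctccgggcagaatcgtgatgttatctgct
Smad6: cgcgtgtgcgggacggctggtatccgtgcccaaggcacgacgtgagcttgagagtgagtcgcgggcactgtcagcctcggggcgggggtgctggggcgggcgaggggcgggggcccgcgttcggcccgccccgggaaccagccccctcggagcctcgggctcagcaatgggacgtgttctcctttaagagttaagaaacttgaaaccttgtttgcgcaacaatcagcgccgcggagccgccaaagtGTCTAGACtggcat
Id3: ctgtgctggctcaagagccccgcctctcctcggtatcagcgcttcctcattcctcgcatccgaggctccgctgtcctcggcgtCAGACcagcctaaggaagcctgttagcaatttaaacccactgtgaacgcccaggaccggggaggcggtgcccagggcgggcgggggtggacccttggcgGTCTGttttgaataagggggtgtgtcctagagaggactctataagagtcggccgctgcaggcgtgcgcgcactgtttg
Id2: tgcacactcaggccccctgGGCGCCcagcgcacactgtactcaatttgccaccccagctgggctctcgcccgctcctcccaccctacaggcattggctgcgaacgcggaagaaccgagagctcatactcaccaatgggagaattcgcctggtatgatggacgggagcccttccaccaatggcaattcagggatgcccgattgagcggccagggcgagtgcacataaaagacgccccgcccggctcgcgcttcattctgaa

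Smad6 held the palindrome GTCTAGAC from 4 bases before the start to base 4 of the transcript. The palindrome is in 0.177% of 32851 windows of this length and in 1 of the 33 pathway windows. Tgfb2 held CAGAC on the plus strand starting 221 and 204 bases before the start, Id3 held it 167 bases before and on the other strand 68 bases before, and Gdf10 held it 98 bases before. That string is in 44.0% of all windows and in 15 of the 33 windows of the 27 pathway genes with an entry. Id2 held GGCGCC 231 bases before the start, which 9.96% of all windows and 8 of the 33 pathway windows hold. The Bmp4 window held none of the 3 strings. A match shows only that the letters are there.

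**Figure D2:**
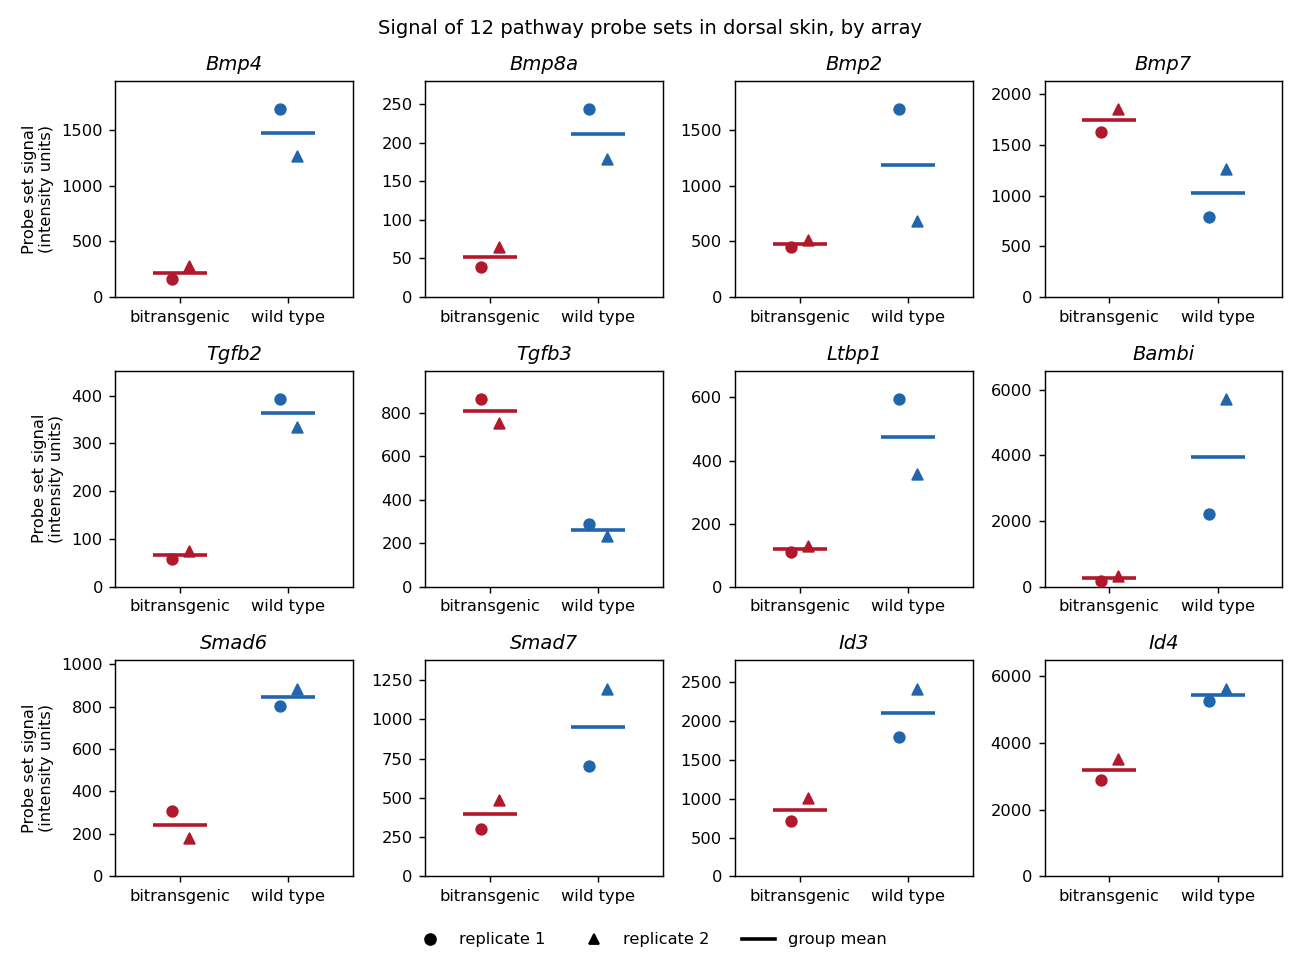
Signal in units of array intensity for 12 pathway probe sets, with bitransgenic arrays in red, wild type arrays in blue, circles for replicate 1, triangles for replicate 2 and bars for group means. Each panel has its own axis from 0; Bambi lies at 190.0 and 333.0 in bitransgenic skin and at 2200.0 and 5715.5 in wild type skin, while Bmp7 and Tgfb3 are higher in both bitransgenic arrays.

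Among the other BMP ligands the direction varied. Bmp8a, a ligand known mainly from the germ line and fat, had signals of 39.2 and 64.8 in bitransgenic skin, against 243.1 and 179.0 in wild type skin. The groups did not overlap (-1.75 ± 0.41, adjusted p = 0.152), but the bitransgenic mean of 52.0 lay under the filter's 57.0, so the probe set was kept only through its wild type signals. All 6 measured of 7 adipocyte markers had lower means too, with sums of 43604 and 56143 in bitransgenic and 95011 and 82545 in wild type skin, and their part in the Bmp8a value was not tested. Bmp2, which like Bmp4 acts in the hair matrix, had signals of 448.6 and 511.0 in bitransgenic skin, against 1688.0 and 687.9 in wild type skin. Wild type replicate 1 stood well above the other 3 arrays, and the difference was -1.15 ± 0.45 (adjusted p = 0.379). That array also had the highest ratio of the 3' to the 5' Gapdh control probe sets, a sign of RNA quality, at 1.55, against 0.931 to 1.02 in the other 3. The actin ratio did not set it apart, at 1.66 against 1.53 to 1.70 in the other 3, and the part of RNA quality in the Bmp2 value was not tested. Without wild type replicate 1 the difference was -0.51, and without wild type replicate 2 it was -1.78.

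All 3 probe sets of Bmp7, a ligand of epithelial and kidney development, had positive differences, from 0.51 to 0.80. The brightest read 1631.6 and 1851.3 in bitransgenic skin, against 790.8 and 1263.3 in wild type skin. Here both bitransgenic arrays were the higher ones (0.79 ± 0.31, adjusted p = 0.387). Bmp6, a ligand of suprabasal epidermis, had signals of 290.3 and 526.2 in bitransgenic and 368.2 and 392.8 in wild type skin, with overlapping groups (0.040, 95% interval -0.88 to 0.96).

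None of the TGF-beta ligands passed the threshold, and differences between the isoforms were not tested. Tgfb2 had 4 probe sets, all lower in both bitransgenic arrays, with differences from -2.47 to -1.39. The most even of them read 57.8 and 74.6 in bitransgenic skin, against 393.3 and 335.1 in wild type skin. That is a 4.64-fold lower signal with little spread within either group, and it missed the threshold (-2.21 ± 0.37, adjusted p = 0.0665). It passed when 1 probe set stood for each gene (adjusted p = 0.0323). With 1 array left out in turn, its difference ran from -2.36 to -2.06. Another Tgfb2 probe set read 39.4 and 51.0 in bitransgenic skin, against 641.3 and 158.1 in wild type skin (-2.47 ± 0.65, adjusted p = 0.191). Wild type replicate 1, the array with the highest Gapdh ratio but not the highest actin ratio, was the brightest. The parts of RNA quality and of cell content were not tested. Both bitransgenic signals of that probe set lay under the filter's 57.0, so it was kept only through its wild type signals.

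Tgfb3, the isoform known for palate fusion, had the largest positive difference among the 86 probe sets. Its signal was 864.2 and 751.8 in bitransgenic skin, against 290.1 and 232.9 in wild type skin. The groups were well apart, at 2.98-fold (1.57 ± 0.31, 95% interval 0.83 to 2.32, adjusted p = 0.101). Tgfb1, the isoform of leukocytes and platelets, read 530.5 and 695.5 in bitransgenic skin, against 395.1 and 439.1 in wild type skin. Both Tgfb1 probe sets were higher in both bitransgenic arrays by 0.53 and 0.46, with adjusted p values of 0.585 and 0.731. The summed signal of 8 leukocyte markers was 23102 and 36607 in bitransgenic skin, against 19004 and 11568 in wild type skin. Lyz2, Cd74 and Csf1r were the largest parts of each sum. Of the 8, 7 had higher means and Cd3e a lower one (-0.27), and Ptprc, Csf1r and Cd3e had overlapping groups. Limma called 0 of them, and 4 were higher at an unadjusted p under 0.05, against 5.19% of all tested. The part of leukocytes in the Tgfb1 values was not tested.

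Neither activin subunit separated the genotypes. Inhbb, the beta-B subunit, read 1932.1 and 2615.7 in bitransgenic and 1697.1 and 2227.6 in wild type skin, with overlapping groups (0.21, 95% interval -0.49 to 0.90). Inhba, the beta-A subunit, read 198.7 and 61.1 in bitransgenic and 318.0 and 177.3 in wild type skin. Its groups overlapped too, and the difference was -0.98 (95% interval -2.39 to 0.43, adjusted p = 0.590).

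Latent TGF-beta binding proteins tether the inactive ligand to the matrix. Ltbp1 read 110.1 and 129.8 in bitransgenic skin, against 595.5 and 356.9 in wild type skin, on the only 1 of its 3 probe sets that was kept. Both bitransgenic signals were under those of wild type, by 3.52-fold (-1.82 ± 0.39, adjusted p = 0.124). With 1 array left out in turn, the difference ran from -2.17 to -1.46. Ltbp2, a matrix protein of the same family, read 243.1 and 243.9 in bitransgenic skin, against 740.9 and 281.4 in wild type skin. Its difference of -0.87 ± 0.49 (adjusted p = 0.568) rested on wild type replicate 1, without which it was -0.20. That array had the highest Gapdh ratio, at 1.55, but not the highest actin ratio. The part of RNA quality in the Ltbp2 value was not tested. Bmp1, a protease that cleaves procollagens and chordin, read 1205.0 and 1303.4 in bitransgenic and 1543.7 and 1419.9 in wild type skin (-0.24 ± 0.25). The 7 measured of 8 fibroblast markers all had lower means. They summed to 60216 and 78548 in bitransgenic skin, against 133864 and 116609 in wild type skin, and the part of fibroblasts in the Ltbp1 and Ltbp2 values was not tested.

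No receptor passed the test. None of the 23 kept probe sets of 9 receptor genes passed limma's threshold, where 0.555% of all tested were called lower and 0.207% higher. None had an unadjusted p under 0.05, against 7.01% lower and 5.19% higher of all tested. Differences over all 28 ran from -0.80 to 0.28. Of the 28, 21 (75.0%) had lower means, against 48.6% over the whole array. Both bitransgenic arrays were below both wild type arrays for 10 (35.7%), against 19.3% over the array. Bmpr1a, the main type I BMP receptor of skin epithelium, had 5 kept probe sets with differences from -0.64 to -0.10. The brightest read 3666.6 and 4348.9 in bitransgenic skin, against 5730.5 and 5583.3 in wild type skin. Both bitransgenic arrays were lower (-0.50 ± 0.24, 95% interval -1.08 to 0.077, adjusted p = 0.486). The other 2 Bmpr1a probe sets with the smallest p had differences of -0.61 and -0.64, with adjusted p values of 0.472 and 0.464. Their signals were 1144.7 and 1228.2 in bitransgenic and 1522.3 and 2183.4 in wild type skin for the first. For the other they were 1415.2 and 1827.7 in bitransgenic and 2124.4 and 2975.9 in wild type skin.

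Bmpr2, the type II BMP receptor, read 5387.8 and 5615.6 in bitransgenic skin, against 7494.7 and 6172.4 in wild type skin on its brightest probe set (-0.31 ± 0.24, adjusted p = 0.708). The groups did not overlap there, while another of its 3 probe sets had a positive difference of 0.28. For the TGF-beta receptors Tgfbr2 and Tgfbr3, the brightest probe sets were nearly level between genotypes. Tgfbr2 averaged 4424 ± 330 in bitransgenic and 4364 ± 470 in wild type skin (SD; 0.022, 95% interval -0.56 to 0.60), and Tgfbr3 averaged 3644 ± 4.60 and 3787 ± 689 (-0.043, 95% interval -0.65 to 0.57). A 2-fold difference in either direction lay outside both intervals. Tgfbr1 had differences from -0.36 to -0.016, Acvr1, a type I receptor for BMPs, from -0.38 to 0.12, and the activin receptors Acvr2a and Acvr2b from -0.36 to 0.10 and from -0.72 to -0.025. Bmpr1b was dim, with 1 of 3 probe sets kept and differences from -0.80 to -0.50.

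**Figure D3:**
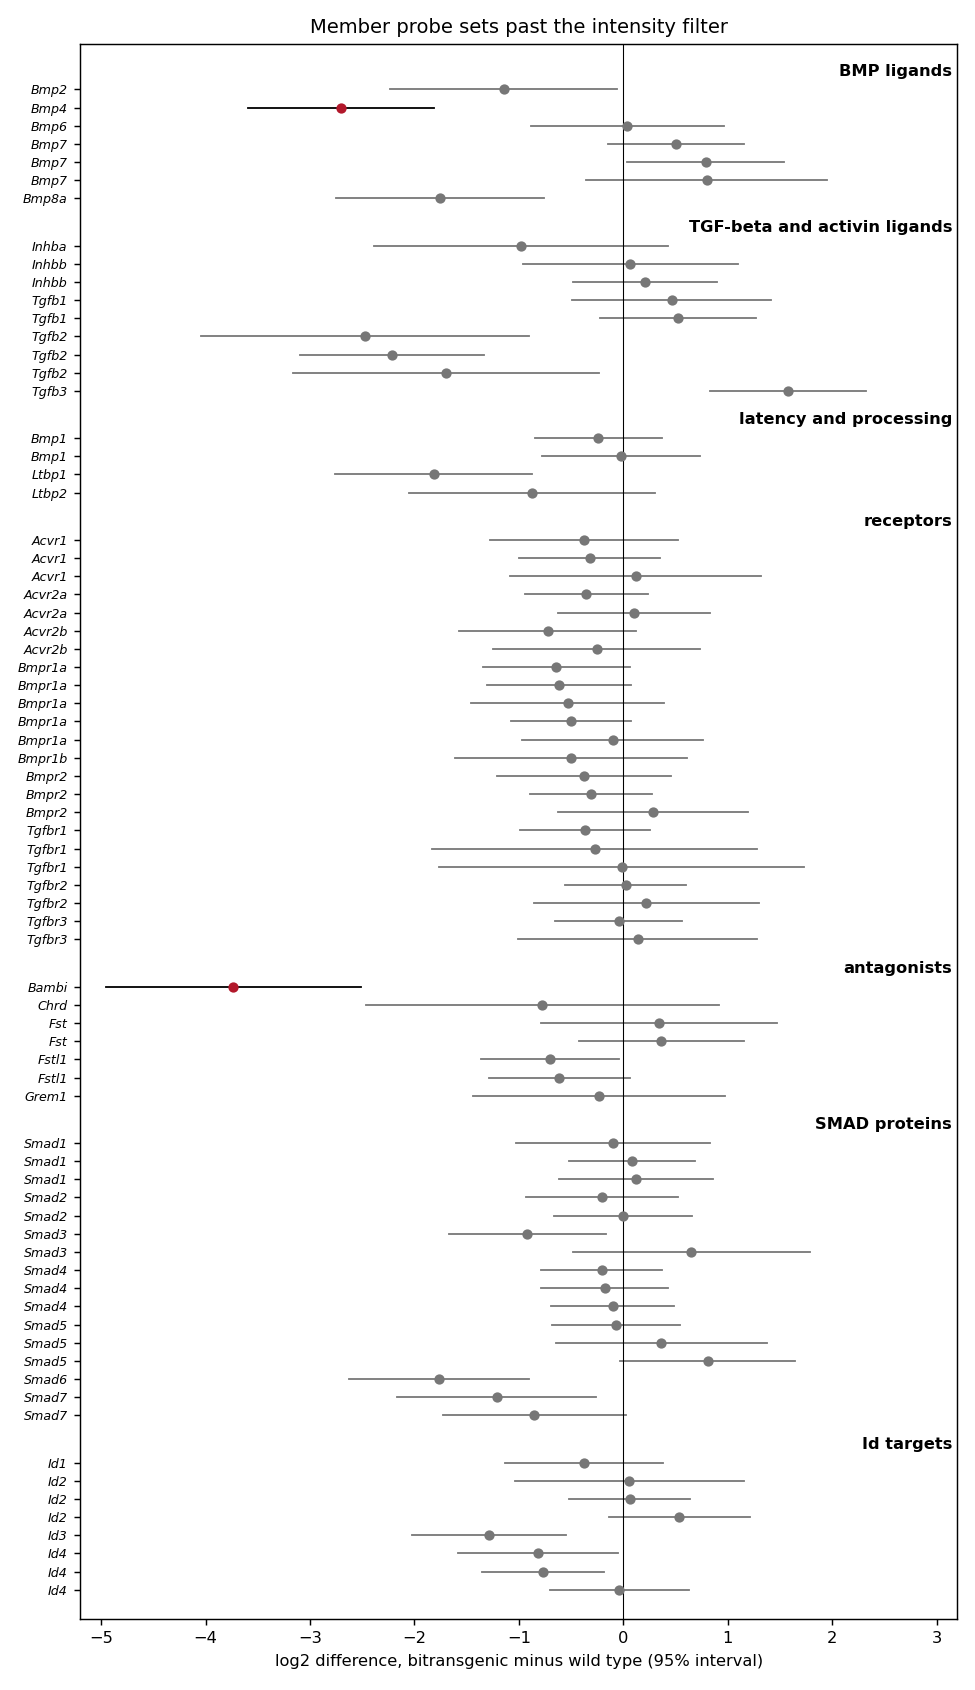
Log2 difference, bitransgenic minus wild type, with its 95% interval from limma, for the 74 kept probe sets by role, where each line is 1 probe set and red points passed the threshold. Bmp4 (-2.70) and Bambi (-3.73) are the red points, and the receptors lie between -0.72 and 0.28.

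Apart from Bambi, no antagonist passed the threshold. Fstl1, a secreted glycoprotein of the follistatin family that dermal cells make, had 2 bright probe sets. They read 6085.1 and 7207.4, and 4916.2 and 6640.9, in bitransgenic skin, against 12774.2 and 9132.1, and 9956.0 and 7664.4, in wild type skin. Neither overlapped between genotypes, with differences of -0.70 ± 0.27 and -0.61 ± 0.28 (adjusted p = 0.376 and 0.465). Fst, the activin and BMP antagonist follistatin, had differences of 0.34 and 0.37 with overlapping groups. Chrd, which codes for chordin, and Grem1, which codes for gremlin, had dim signals with overlapping groups and differences of -0.77 (95% interval -2.46 to 0.92) and -0.24 (-1.44 to 0.97). Nog lay below the filter, at 39 and 50.3 in bitransgenic and 77.2 and 44.6 in wild type skin.

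By the lowest probe set of each SMAD gene, the 2 inhibitory ones had the lowest differences. Smad6 read 306.6 and 181.1 in bitransgenic skin, against 802.2 and 884.8 in wild type skin. The groups were well apart, by 3.40-fold, but the test missed the threshold (-1.77 ± 0.36, adjusted p = 0.110). Smad7 read 304.3 and 487.8 in bitransgenic skin, against 700.3 and 1195.7 in wild type skin. Its 2 probe sets had differences of -1.21 ± 0.39 and -0.85 ± 0.36, with both bitransgenic arrays lower on each (adjusted p = 0.279 and 0.425).

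None of the receptor SMADs or SMAD4 passed limma's threshold. Of 16 kept SMAD probe sets, 3 were lower and 0 higher at an unadjusted p under 0.05, against 7.01% and 5.19% of all tested. They were 1 of Smad3, that of Smad6 and the brighter of Smad7. Smad3, which carries TGF-beta and activin signals, read 528.3 and 805.4 in bitransgenic skin, against 1320.8 and 1179.6 in wild type skin on its brightest probe set (-0.92 ± 0.31, adjusted p = 0.30). A dim Smad3 probe set, whose suffix marks sequence that other transcripts can share, had a positive difference of 0.65 (adjusted p = 0.672). It read 90.4 and 88.5 in bitransgenic skin, against 31.2 and 79.3 in wild type skin. Its wild type mean of 55.25 lay under the filter's 57.0, and the difference rested mostly on wild type replicate 1. The Smad3 probe set that was not kept had a difference of -0.69, also from dim signals. Signals this dim cannot show whether the gene's probe sets disagree. Smad4 had bright probe sets with differences from -0.21 to -0.099; the brightest read 3908.7 and 4569.6 in bitransgenic and 5019.7 and 4747.7 in wild type skin. Smad1 had differences from -0.10 to 0.12 and Smad2 from -0.20 to -0.0041. Smad5 ran from -0.070 on its brightest probe set to 0.81 on another, at 261.2 and 236.1 in bitransgenic and 137.4 and 132.6 in wild type skin (adjusted p = 0.431).

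The 4 Id genes, which code for helix-loop-helix proteins that block the binding of other such factors to DNA, did not share a direction. Id3 read 713.4 and 1003.4 in bitransgenic skin, against 1790.7 and 2419.6 in wild type skin. Both bitransgenic arrays were lower, by 2.43-fold (-1.28 ± 0.31, adjusted p = 0.155). Id4 had 2 probe sets that were lower in both bitransgenic arrays and another with no such separation. One of the pair read 2892.4 and 3503.9 in bitransgenic skin, against 5245.8 and 5630.9 in wild type skin (-0.77 ± 0.24, adjusted p = 0.268). The other read 2326.9 and 1850.1 in bitransgenic skin, against 4662.9 and 2866.1 in wild type skin (-0.81 ± 0.32, adjusted p = 0.377), and the remaining probe set gave -0.036.

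Id1 and Id2 did not share that pattern. Id1 read 1798.1 and 2499.3 in bitransgenic and 2249.1 and 3376.9 in wild type skin, with overlapping groups (-0.38, 95% interval -1.13 to 0.38). The brightest Id2 probe set averaged 2586 ± 176 in bitransgenic and 2480 ± 182 in wild type skin (SD; 0.060, 95% interval -0.52 to 0.64). Another Id2 probe set read 1336.9 and 1321.4 in bitransgenic skin, against 786.1 and 1054.2 in wild type skin, so its groups did not overlap (0.54 ± 0.28, adjusted p = 0.525). Differences between the Id genes were not tested.

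The same arrays hold other genes of the pathway. A second list of 91 such genes had 79 with a probe set, 155 probe sets in all, of which 108 were kept. In this list 1 gene, Gdf10, passed the threshold and none rose past it. Over all tested probe sets 0.555% were called lower and 0.207% higher. Gdf10, a BMP3-related ligand also called BMP3b, read 76.4 and 68.8 in bitransgenic skin, against 643.4 and 562.2 in wild type skin. The groups were tight and 6.98-fold apart (-2.80 ± 0.34, adjusted p = 0.0320), a call that was lost with no filter or without bitransgenic replicate 1. At an unadjusted p under 0.05, 5 of the 108 kept probe sets were higher and 18 lower, against 5.19% and 7.01% of all tested.

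Among the list's antagonists, Sostdc1, a secreted BMP and Wnt antagonist of epithelial appendages, had the smallest p. It read 4385.1 and 6285.2 in bitransgenic skin, against 1894.7 and 2001.6 in wild type skin. Both bitransgenic arrays were above both wild type arrays, by 2.68-fold (1.42 ± 0.27, adjusted p = 0.0970), and its second probe set had a difference of 1.68 ± 0.73 (adjusted p = 0.439). Pmepa1, a TGF-beta target that inhibits the same pathway, read 2704.6 and 2339.5 in bitransgenic skin, against 1431.5 and 1497.5 in wild type skin. None of its 3 probe sets overlapped between genotypes, with 0.77 ± 0.25 here (adjusted p = 0.270) and 0.83 and 1.10 for the other two.

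The list's target genes had a median difference of -0.54 over 33 probe sets, against 0.016 over the array. Of their 29 kept probe sets limma called 0, and 12 were lower and 0 higher at an unadjusted p under 0.05. Over all tested probe sets the shares at that p were 7.01% lower and 5.19% higher. Col1a1, Col1a2 and Foxn1 each had more than 1 probe set among the 12. Of the 18 measured target genes, 8 are also on the marker lists for the hair matrix (Msx2, Dlx3, Foxn1, Gata3 and Hoxc13) or fibroblasts (Col1a1, Col1a2 and Col3a1). The part of those cells was not tested. Among the 12, only the Msx1 probe set was of a gene off those lists. Also off them, Fn1, Postn, Tagln, Ccn2 and Tgfbi had overlapping groups on each probe set, with differences from -0.52 to 0.074. Cdkn2b (-0.54) and the dim Atoh8 (-1.57) were lower in both bitransgenic arrays. On their brightest probe sets Acta2 overlapped (0.17) and Cdkn1a was higher in both (0.54). Col1a1, a fibrillar collagen gene that TGF-beta induces in fibroblasts, read 7005.8 and 10036.1 in bitransgenic skin, against 24112.7 and 21767.3 in wild type skin (-1.45 ± 0.28, adjusted p = 0.0958). Msx2, a BMP-induced homeobox gene of the hair matrix chosen after its values were seen, read 71.9 and 305.5 in bitransgenic skin, against 1133.9 and 3336.9 in wild type skin (-3.55 ± 0.73, adjusted p = 0.113). Both genes were lower in both bitransgenic arrays. Among the list's receptors, 13 of 20 probe sets (65.0%) had lower means, and among its processing proteins 9 of 21 (42.9%). Over the whole array the share was 48.6%. The smallest p there were those of Rgmb and Tll1. Rgmb, a BMP co-receptor gene, had a difference on 1 of 6 probe sets of -0.91 ± 0.31 (adjusted p = 0.305), and Tll1, a protease related to BMP1, of -1.45 ± 0.56 (adjusted p = 0.367). In the other direction Itgb8, an integrin subunit gene for activation of latent TGF-beta, chosen after its values were seen, had a difference of 0.99 ± 0.40 (adjusted p = 0.396).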

How the data were processed

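Skin RNA was labelled with biotin and hybridised to 1 array per animal, per the labels' protocols. The authors' deposited values are signal intensities per probe set on a linear scale. Per the submitters' processing notes the tools were MAS5 and affy, with no version or role stated. The mean of each deposited array, trimmed by 2% at each end, was 500.0, so each value is relative to the rest of its array. The table has no detection calls.

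Names came from the platform annotation. Of 45101 probe sets, 64 were controls, 34945 had 1 symbol, 932 several and 9160 none; those with several were named for no gene. By Entrez identifier, 34741 matched RefSeq (GRCm38.p6), which changed 0 symbols. The files name no genome build.

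On log2(signal + 16), the test of genotype used limma 3.58.1 under R 4.3.3 (a linear fit, then eBayes with an intensity trend; 2 residual and 4.40 prior degrees of freedom), with Benjamini-Hochberg adjustment over all 27022 kept probe sets. Intervals are 95%. For a single value an exact permutation test cannot go below a two-sided p of 0.333, so none is given. The fit was tested on simulated data. Values by array are given for probe sets past the threshold, for the 3 smallest p and the brightest probe set of each role, and for further probe sets chosen after their values were seen. The members, lists and tests were chosen with earlier results of these data known. The 14 alternatives tried are in the closing section.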

Additional observations from a re-analysis of the deposited data

How the results depend on the processing

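The fit as reported called 56 probe sets of the array higher and 150 lower in bitransgenic skin, 0 and 2 of the pathway's 86, and 0 and 1 of the second pathway list. With the replicate block (replicate number as a factor), it called 275 higher and 588 lower over the array, 1 higher (Tgfb3, adjusted p = 0.0398) and 6 lower of the pathway (Bambi 0.00199, Bmp4 0.0149, Tgfb2 0.0245, Smad6 0.0423, Id3 0.0468 and Ltbp1 0.0489) and 2 higher and 8 lower of the second list. Same-numbered arrays had a correlation of 0.336 between their deviations from the group means, but with 2 pairs and no shared litter or batch in the labels they share only a number, and the Xist and Eif2s3y signals are opposite within each number. Leaving out 1 array in turn gave 40 to 370 higher and 144 to 735 lower over the array, 0 higher and 1 to 7 lower of the pathway, and 0 to 2 higher and 0 to 5 lower of the second list. The 7 came without wild type replicate 2, where 3 Tgfb2 probe sets, Bmp2 and Ltbp1 joined Bambi and Bmp4, and the 1, Bambi, without bitransgenic replicate 1. Over the array, 370 and 735 came without wild type replicate 2, and 185 and 374 without wild type replicate 1. In the second list, the 2 higher came without wild type replicate 2, the 5 lower without wild type replicate 1 and the 0 lower without bitransgenic replicate 1. With no filter the calls were 20 higher and 58 lower over the array, with 0 lower in the pathway and 0 in the second list. Without an intensity trend they were 21 and 66, with 0 lower in the pathway. With 1 probe set per gene 98 were higher over the array and Tgfb2 (0.0323) was called too. Of the 25 probe sets given by the rule for named genes, 1 changed sign in any setting: Inhbb ranged from -0.0091 without bitransgenic replicate 2 to 0.42 without bitransgenic replicate 1. Pseudocounts of 1 and 64, a filter at the 60th percentile, quantile normalization, equal array medians and leaving out probe sets with a shared-sequence suffix each called Bmp4 and Bambi and no other pathway probe set. Why the counts moved was not tested. With 2 arrays per group and dim signals near 57.0, differences of 2-fold to 4-fold that missed the threshold are not shown to be absent.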
